A study of Homo sapiens with 6 samples.

Results

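The Mediator head is the module of the Mediator complex that contacts RNA polymerase II, and 10 of its subunits were described here: MED18, MED6, MED8, MED11, MED17, MED19, MED20, MED22, MED28 and MED30. They were found by gene name in a deposited table of 12154 protein-coding genes, and all 10 were listed. The set was chosen by the measured levels of MED18, which differed between the 2 groups of these same libraries. That difference is therefore given as a description without a test, while the other 9 subunits were taken for their place in the complex.

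Mediator is a large complex that carries signals from transcription factors bound to DNA to RNA polymerase II at the promoter. It is built of head, middle and tail modules joined by the scaffold subunit MED14, and a kinase module with CDK8 or CDK19 binds reversibly. In the head, MED17 is the central subunit on which the others assemble, MED11 and MED22 form a pair, MED6 links the head to the middle module, and MED18 and MED20 form a movable jaw that is held by the C-terminal part of MED8. MED19 is placed in the head or the middle module by different schemes. MED28 and MED30 have no known counterpart in the budding yeast complex.

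RNA-seq covered 3 libraries of AS-tDR-007333-overexpressed cells (OE) and 3 libraries of control cells (NC). AS-tDR-007333 is a fragment from the 5′ end of a glycine tRNA. According to the sample labels, A549 lung adenocarcinoma cells received a plasmid for the fragment by lipofection in OE and the empty vector in NC, while the methods of the study name PC9, another lung adenocarcinoma line, transfected with the fragment or with a negative control. Separate cultures are stated by neither source, so the p-values cover library-to-library spread, possibly of technical origin. The fragment and its negative control, as listed in the oligonucleotide table of the study, are shown because they are what the methods set apart in OE and NC:
fragment: gcauuggugguucagugguagaauucuu
control: gagaauuuugauggccguucuguaugug
Both are 28 bases long.

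The 6 libraries summed to 197324 to 202921 FPKM (fragments per kilobase of exon per 1000000 mapped fragments), and the read depth is unknown. Epithelial keratins were abundant in both groups, with KRT18 at 224 to 242 FPKM in OE and 207 to 221 FPKM in NC. Markers of the cell line were divided. CDKN2A, which A549 cells are known to have lost by a homozygous deletion, was listed at 12.4 to 17.5 FPKM in OE and 9.84 to 14.2 FPKM in NC, against the A549 label. Of its neighbours in that deletion, CDKN2B was listed at 14.3 to 16.3 FPKM in OE and 15.7 to 16.9 FPKM in NC, and MTAP at 0.961 to 3.26 FPKM in OE and 0.997 to 1.48 FPKM in NC. AKR1B10, an NRF2 target known to be high in A549 cells, was listed at 152 to 159 FPKM in OE and 153 to 163 FPKM in NC. The NRF2 targets AKR1C1, AKR1C2, AKR1C3 and NQO1 were listed too, from 95.8 (AKR1C1) to 178.5 FPKM (AKR1C3) in OE. In NC these ranged from 90.2 (AKR1C1) to 171.3 FPKM (AKR1C3). ALDH1A1, also known to be high in A549 cells, was not listed. Of 5 markers of leukocytes, endothelium and fibroblasts, COL1A1 (5.71 to 6.04 FPKM in OE, 5.09 to 6.10 FPKM in NC) and CD74 (0.750 to 1.83 FPKM in OE, 0.866 to 0.953 FPKM in NC) were listed and PTPRC, COL3A1 and PECAM1 were not. Their part in the values of the head subunits was not tested.

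MED18, one side of the movable jaw, was listed at 10.35, 11.04 and 10.02 FPKM in the 3 OE libraries, against 3.23, 3.82 and 2.85 FPKM in the 3 NC libraries. Every OE library lay above every NC library, and the lowest OE value was higher than the highest NC value by a wide margin. The means were 10.5 ± 0.519 FPKM in OE and 3.30 ± 0.486 FPKM in NC (SD, n = 3 each), a ratio of 3.17 and a log2 difference of 1.42 on the log2(FPKM + 1) scale. Among the 10 subunits, MED18 took place 3 in each OE library, against place 9, 8 and 9 in the NC libraries. These values chose the gene and support nothing. In bulk RNA, more cells that express a gene and more RNA per cell cannot be told apart. With a pseudocount of 0.1 FPKM in place of 1 FPKM the log2 difference was 1.64.

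MED18 (ENSG00000130772) is located at chr1:28655513-28662478 (GRCh37, plus strand). GENCODE 44, mapped to that build, gives it 5 transcripts, of which the canonical one has 3 exons, and no other coding gene overlaps it. The nearest coding genes of the table were examined for a difference shared with MED18. SESN2, which encodes the stress-induced protein sestrin 2, ends 46510 bp before its start and was listed at 5.07, 4.61 and 4.72 FPKM in OE, against 5.76, 4.40 and 5.15 FPKM in NC. PHACTR4, a phosphatase and actin regulator, begins 33614 bp beyond its end and was listed at 7.47, 7.55 and 7.30 FPKM in OE, against 7.31, 7.32 and 6.31 FPKM in NC. The groups overlapped for both neighbours, with log2 differences of -0.07 ± 0.09 and 0.08 ± 0.07 (SE) and unadjusted p of 0.493 and 0.269 from limma.

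The promoter of MED18 was taken from RefSeq (GRCh38.p14, chr1:28328790-28329089, plus strand, 250 bases before to 50 after the start). It is shown because the levels of MED18 chose the set and because the study deals with ELK4, an ETS factor. The capitals mark CCGGAAG, a core sequence of ETS factors, searched on both strands:
MED18: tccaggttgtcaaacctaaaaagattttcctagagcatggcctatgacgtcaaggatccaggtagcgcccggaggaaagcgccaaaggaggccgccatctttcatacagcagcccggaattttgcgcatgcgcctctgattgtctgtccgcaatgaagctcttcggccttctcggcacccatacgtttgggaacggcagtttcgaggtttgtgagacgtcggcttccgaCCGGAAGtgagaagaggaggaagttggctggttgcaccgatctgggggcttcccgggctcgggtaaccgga
The match began 21 bases before the start. MED18, MED11, MED17, MED19 and MED20 were matched in the promoter table. MED11 also held 1 match and MED17 held 2, while MED19 and MED20 held 0. Among all 35116 promoters of this length 10.3% held the 7 letters, and among the 12614 promoters of genes tested 18.0% did. These shares count every promoter, and a gene can have several, while each subunit was scored on its first listed promoter only. The match is a description of these letters and says nothing of binding.

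**Figure D1:**
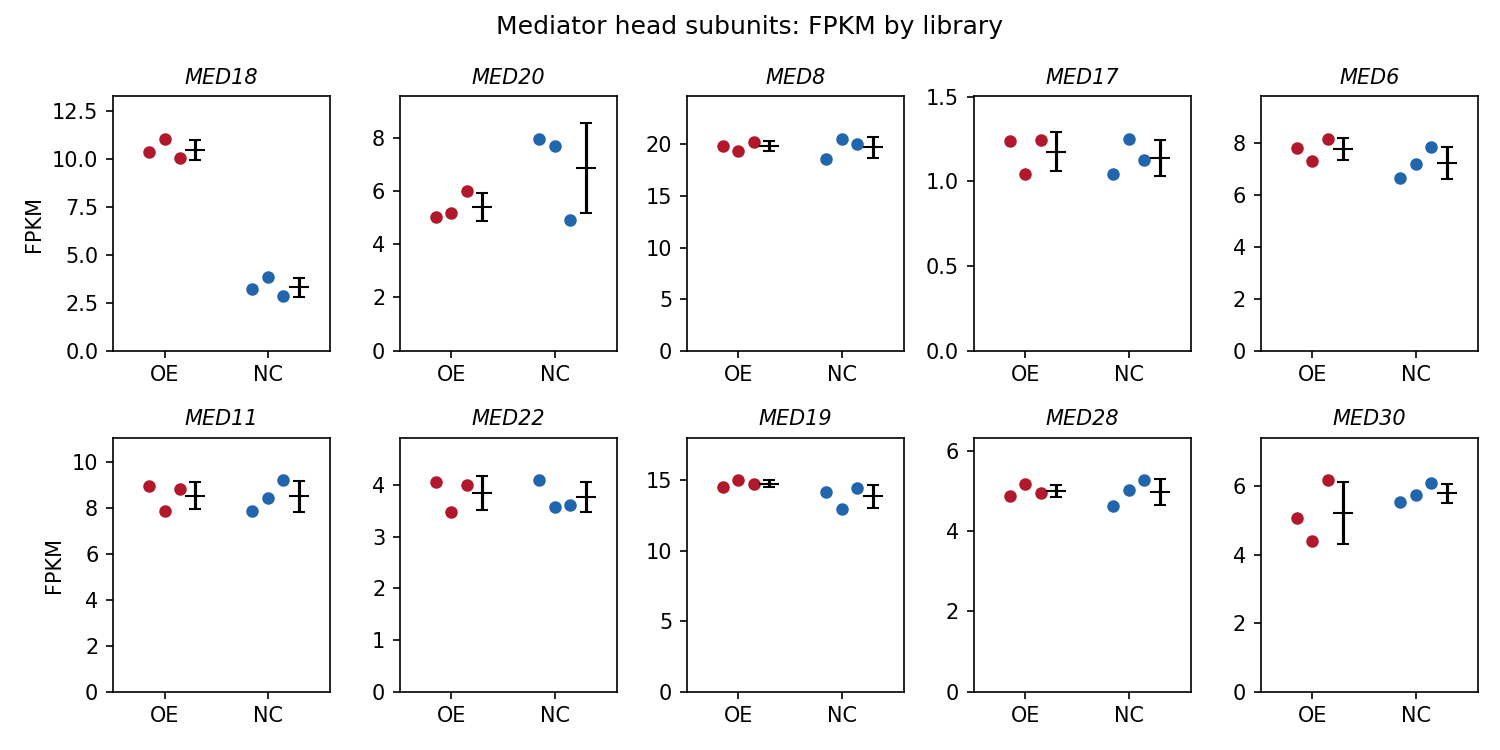
FPKM (y axis, linear, from 0) of the 10 head subunits in the 3 OE libraries (red) and the 3 NC libraries (blue), with replicates in order from left to right and the mean ± SD in black. MED18 lies at 10.02 to 11.04 FPKM in OE and 2.85 to 3.82 FPKM in NC, and MED20 shows a low value of 4.91 FPKM in NC replicate 3.

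MED20, the partner of MED18 in the jaw (chr6:41873092-41888877, minus strand), showed no such separation. MED20 was listed at 5.02, 5.19 and 5.998 FPKM in OE, against 7.96, 7.69 and 4.91 FPKM in NC. NC replicates 1 and 2 were high, while NC replicate 3 lay below all OE libraries, so the groups overlapped. The log2 difference was -0.27 (95% confidence interval -0.68 to 0.13, unadjusted p = 0.154 from limma), the widest interval among the head subunits tested. Without NC replicate 3 it was -0.47 (limma, unadjusted p = 0.00251, adjusted p = 0.523), and without NC replicate 1 it was -0.17. In the Ballgown-style model it was -0.12. In GENCODE 44 a coding gene with no symbol overlaps MED20 on its own strand, and reads shared with it could not be told apart here. Over the 6 libraries, the highest value of MED20 was 1.62 times the lowest, a larger ratio than in 85.2% of the genes tested, where the median was 1.248.

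MED8, whose C-terminal part holds the jaw, had the highest FPKM of the head subunits (chr1:43849588-43855479, minus strand). It was listed at 19.9, 19.3 and 20.3 FPKM in OE, against 18.6, 20.5 and 20.1 FPKM in NC. The groups overlapped, and the log2 difference was 0.01 (95% confidence interval -0.13 to 0.14, limma). The highest library was 1.11 times the lowest, a smaller ratio than in most genes (9.76% of the genes tested had a smaller one).

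Within the jaw, the ratio of MED18 to MED20 in FPKM was 2.06, 2.13 and 1.67 in OE and 0.405, 0.497 and 0.581 in NC. MED18 thus lay above MED20 in every OE library and below it in every NC library. This ratio and the share of MED18 given below contain the values that chose the gene and add no support. The ratio of MED20 to MED8 was 0.253, 0.269 and 0.296 in OE and 0.429, 0.374 and 0.245 in NC, so it was high in NC replicates 1 and 2 and in no other library. MED18 made up 12.7, 13.8 and 11.9% of the summed FPKM of the 10 subunits in OE, against 4.38, 5.01 and 3.79% in NC. The sum of the other 9 subunits was 71.4, 68.8 and 74.4 FPKM in OE and 70.6, 72.4 and 72.5 FPKM in NC, and these ranges overlapped.

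**Figure D2:**
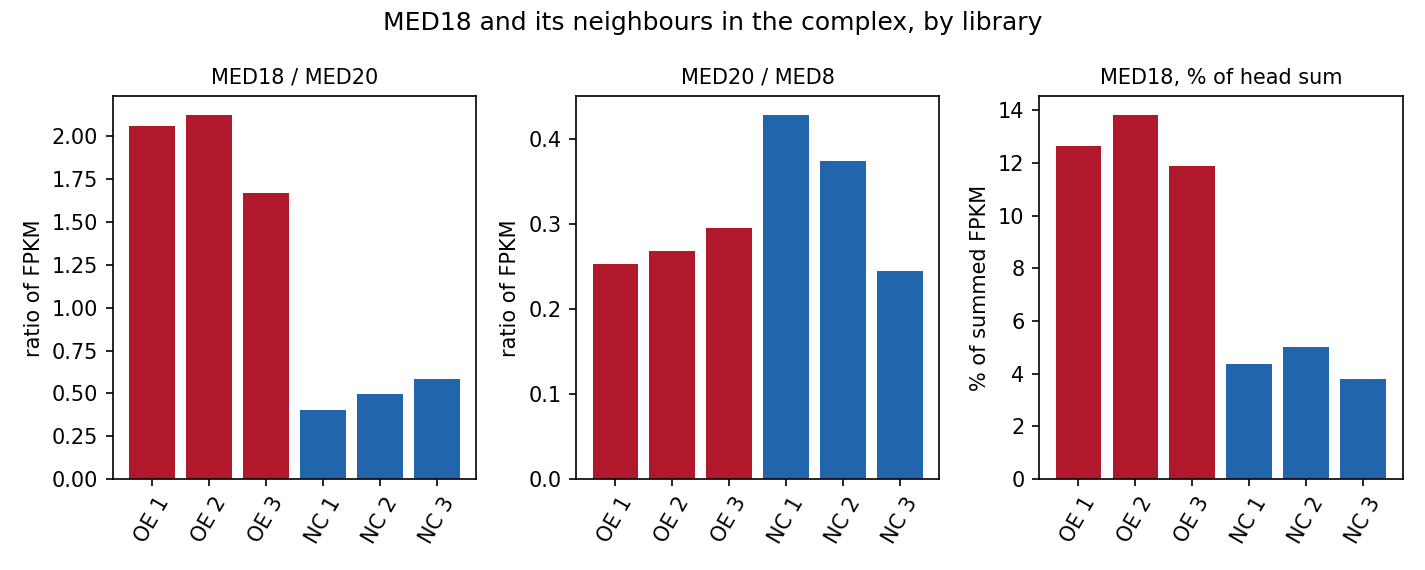
Ratio of MED18 to MED20, ratio of MED20 to MED8, and share of MED18 in the summed FPKM of the 10 head subunits, as 1 bar per library (OE red, NC blue, axes from 0). The ratio of MED18 to MED20 is 1.67 to 2.13 in OE and 0.405 to 0.581 in NC.

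MED17, the central subunit of the head, had the lowest FPKM of the module (chr11:93517393-93548129, plus strand). It was listed at 1.236, 1.043 and 1.247 FPKM in OE, against 1.041, 1.251 and 1.128 FPKM in NC. The groups overlapped almost fully, with a log2 difference of 0.02 (95% confidence interval -0.15 to 0.20, limma). MED17 overlaps TAF1D, a coding gene on the opposite strand, and another coding gene on its own strand, and how the authors assigned reads shared by overlapping genes was not found in their methods.

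MED11 and MED22, the helical pair that sits with MED17, were close to level between the groups. MED11 was listed at 8.94, 7.86 and 8.83 FPKM in OE, against 7.89, 8.42 and 9.22 FPKM in NC. MED22 was listed at 4.06, 3.47 and 3.99 FPKM in OE, against 4.09, 3.58 and 3.61 FPKM in NC. In both genes the groups overlapped. The log2 differences were 0.01 (95% confidence interval -0.18 to 0.19) for MED11 and 0.02 (95% confidence interval -0.17 to 0.21) for MED22. The ratio of MED11 to MED22 in FPKM was 2.20 to 2.27 in OE and 1.93 to 2.56 in NC. MED11 overlaps CXCL16 on the opposite strand.

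MED6, the link to the middle module, was listed at 7.82, 7.31 and 8.16 FPKM in OE, against 6.65, 7.21 and 7.85 FPKM in NC. The groups overlapped, with 1 OE library above the NC range, and the log2 difference was 0.09 (95% confidence interval -0.09 to 0.27, limma).

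MED19 (chr11:57471186-57479795, minus strand) was the other subunit whose groups did not overlap. It was listed at 14.51, 14.99 and 14.75 FPKM in OE, against 14.2, 12.9 and 14.4 FPKM in NC. The gap between the lowest OE and the highest NC library was small, and the log2 difference of 0.09 (95% confidence interval -0.05 to 0.23, unadjusted p = 0.178, adjusted p = 0.9996 from limma) did not pass the threshold. Among all genes tested, 8.76% had groups that did not overlap, with all OE values above all NC values in 3.58% and below them in 5.18%. MED18 and MED19 were 2 of 10 by this count, and MED18 was chosen for it.

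MED28 and MED30 are the subunits without a yeast counterpart. MED28, which also binds the tumor suppressor merlin in the cytoplasm, was listed at 4.88, 5.16 and 4.96 FPKM in OE, against 4.62, 5.02 and 5.27 FPKM in NC, a log2 difference of 0.01 (95% confidence interval -0.14 to 0.16, limma). MED30 was listed at 5.07, 4.40 and 6.18 FPKM in OE, against 5.54, 5.75 and 6.08 FPKM in NC. Its OE libraries spread around the NC range, with a coefficient of variation of 17.2% in OE and 4.72% in NC, and the log2 difference was -0.14 (95% confidence interval -0.40 to 0.13, limma). Without OE replicate 3, its highest library, MED30 had a log2 difference of -0.25 (limma, unadjusted p = 0.0284, adjusted p = 1). Without OE replicate 2, its lowest library, the difference was -0.04 (limma, unadjusted p = 0.689, adjusted p = 0.999). MED28 overlaps FAM184B on the opposite strand.

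Across the module, 0 of the 9 subunits other than MED18 were called at a limma adjusted p under 0.05, where 7 of 11042 genes tested (0.0634%) were called, 0.0362% as higher and 0.0272% as lower in OE. At an unadjusted p under 0.05, 0 of the 9 passed, against 3.61% of the genes tested, 1.63% as higher and 1.98% as lower in OE. A Ballgown-style model and a per-gene model without moderation called 0 genes in all, so their 0 of 9 says nothing of the subunits. At an unadjusted p under 0.05 they passed 907 of 11042 and 513 of 12154 genes, 0 of the 9 among them. With 1 library left out, 1 to 18 genes were called, and 0 of the 9. The 9 subunits had a median log2 difference of 0.01, against -0.01 over all genes tested, and ranged from -0.27 for MED20 to 0.09 for MED6. On the log2(FPKM + 1) scale their 95% confidence intervals lay between -0.68 and 0.27. This scale understates differences of low genes such as MED17 (0.02, against 0.04 with a pseudocount of 0.1 FPKM). A p that misses the threshold does not show that a subunit was the same in both groups.

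**Figure D3:**
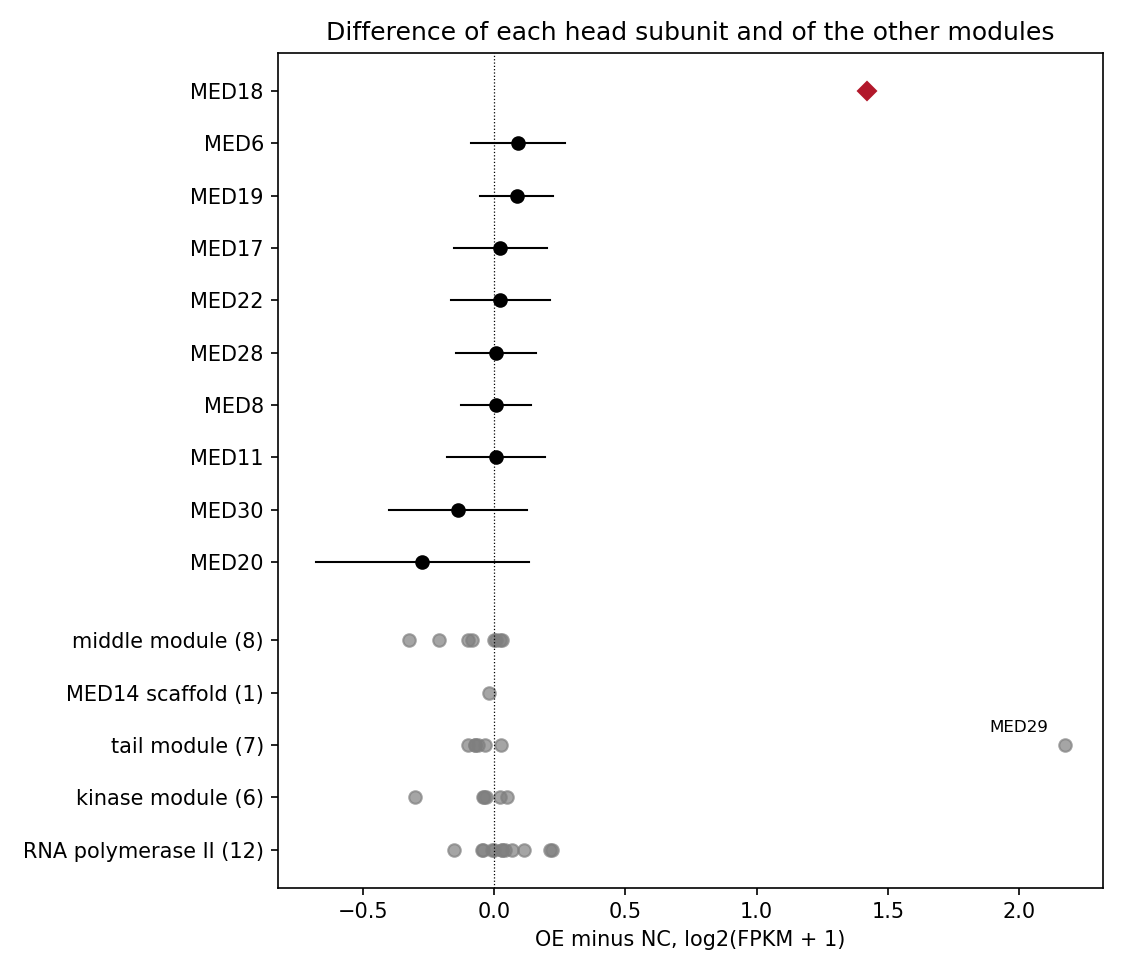
OE minus NC on the log2(FPKM + 1) scale for each head subunit, with the 95% confidence interval from limma, and as points for the other Mediator modules and RNA polymerase II (number of genes tested in parentheses). MED18 is drawn without an interval because it was chosen for its difference (1.42), the other 9 subunits lie between -0.27 and 0.09, and MED29 of the tail lies at 2.17.

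The other modules were read for comparison. Of 23 other Mediator genes, 22 were tested, since MED12L is not in the table. MED29 was counted here as a tail subunit, while the study places it in the head module, so the head counts leave it out. MED29 was called higher, with a mean of 9.64 FPKM in OE and 1.36 FPKM in NC (log2 difference of 2.17, adjusted p = 4.96e-04 from limma). The study already reported MED29 as its most raised gene from this RNA-seq, so the call repeats that result and adds no support. Both models without moderation, which called 0 genes, lost this call at a log2 difference of 2.24 (Ballgown-style, adjusted p = 0.174) and 2.17 (plain, adjusted p = 0.0719). The count called lower was 0 of 22, against 0.0272% of all genes tested. MED7 of the middle module had a log2 difference of -0.21 (unadjusted p = 0.0431, adjusted p = 0.9996 from limma). It was the one gene of the 22 lower at an unadjusted p under 0.05, against 1.98% of all genes tested. The median log2 difference was -0.04 in the middle module, -0.06 in the tail and -0.03 in the kinase module. MED29 aside, the largest differences were MED21 in the middle module (-0.32, unadjusted p = 0.435) and CCNC, the cyclin of the kinase module (-0.30, unadjusted p = 0.277). Both depended on single libraries. MED21 was at -0.06 without OE replicate 3 and -0.68 without NC replicate 2, and CCNC at -0.02 without OE replicate 2 and -0.46 without OE replicate 1. MED14, the scaffold on which the head rests, had a log2 difference of -0.02. Of the 12 subunits of RNA polymerase II, 0 were called in either direction, against 0.0634% of all genes tested. POLR2L had the largest difference (0.22, unadjusted p = 0.0313, adjusted p = 0.9996 from limma). The median of the 12 subunits was 0.03.

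The levels of the subunits were set against each other with attention to length, since FPKM divides by it. For each of the 10 subunits the smallest length from 1 to 30000 bp was found at which all 6 deposited values, multiplied by that length and by 1000000, were whole within 0.01. These lengths lay within 5.51% of the length of all exons of the gene merged over its transcripts, as computed from GENCODE 44, and they were equal to it for MED6, MED8, MED17, MED20 and MED30. The values are thus per kilobase of merged exons, not of the main mRNA. MED17 is the clearest case, with 16610 bp of merged exons over 29 transcripts against 5087 bp in its canonical transcript, a ratio of 3.27. For MED18 the lengths were 2019 and 1829 bp (ratio of 1.10) and for MED28 10982 and 10858 bp (1.01).

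In OE, the order by FPKM was MED8 (19.8), MED19 (14.8), MED18 (10.5), MED11 (8.55), MED6 (7.77), MED20 (5.41), MED30 (5.22), MED28 (5.00), MED22 (3.84) and MED17 (1.18). Ranges overlapped between MED11 and MED6, MED20 and MED30, and MED30 and MED28, and the 6 other neighbouring pairs were separated. In NC, the order was MED8 (19.7), MED19 (13.8), MED11 (8.51), MED6 (7.24), MED20 (6.85), MED30 (5.79), MED28 (4.97), MED22 (3.76), MED18 (3.30) and MED17 (1.14). Ranges overlapped between MED6 and MED20, MED20 and MED30, and MED22 and MED18. Without MED18, the order of the other 9 subunits by their means per kilobase of merged exons was the same in OE and NC.

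Rescaled to the length of the canonical transcript, which assumes that all fragments came from it, MED17 was at 3.84 ± 0.374 FPKM in OE and 3.72 ± 0.344 FPKM in NC. MED18 was then at 11.6 ± 0.573 FPKM in OE and 3.64 ± 0.537 FPKM in NC (SD, n = 3 each). On this scale MED18 was the lowest subunit in NC, with a range that overlapped that of MED17, and the fifth in OE, below MED11 (15.1) and MED6 (13.9). The top of the order, MED8 and MED19, was the same on both scales, with MED8 at 27.2 FPKM in OE and 27.1 FPKM in NC. On the canonical scale MED30 lay above MED20 in OE (7.63 against 7.15 FPKM). In NC it lay below MED20 (8.47 against 9.07 FPKM), and the ranges of the pair overlapped in both groups. The ratio of OE to NC for a single gene does not depend on the length.

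**Figure D4:**
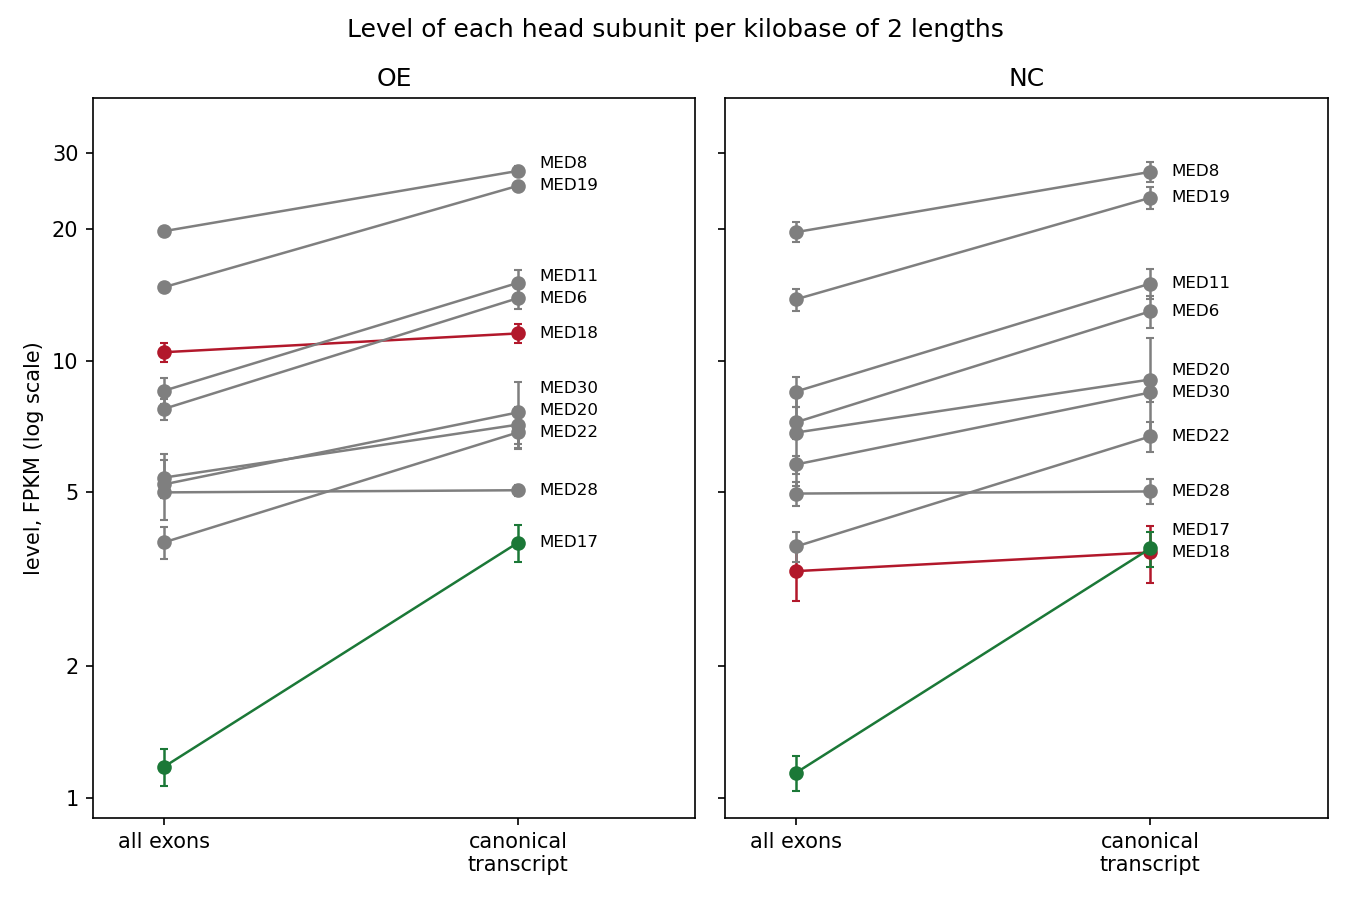
Level of each head subunit in FPKM (log axis) per kilobase of all merged exons, as deposited, and per kilobase of the canonical transcript, in OE (left) and NC (right), with points as means and bars as SD of 3 libraries. In OE, MED17 (green) is at 1.18 FPKM per merged exons and 3.84 FPKM per canonical transcript, and MED18 (red) at 10.5 and 11.6 FPKM.

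FPKM times the merged length in kilobases gives the fragments per 1000000 mapped fragments behind each value. MED18 had 20.9, 22.3 and 20.2 of these in OE, against 6.52, 7.71 and 5.76 in NC. MED30, the subunit with the fewest in OE, had 6.34 to 8.90 in OE and 7.98 to 8.76 in NC, while MED28 had 53.6 to 56.7 in OE and 50.8 to 57.8 in NC. MED17, although lowest in FPKM, had 17.3 to 20.7 in OE and 17.3 to 20.8 in NC. The values of MED30 and of MED18 in NC therefore rest on the fewest fragments.

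The genes most like MED18 over the 6 libraries were found as those with the smallest root mean square difference in log2(FPKM + 1) after centring each gene on its mean. They were SCHIP1 (0.15), SHISA5 (0.30), RTL8C (0.31), SAMD12 (0.31) and ARL2BP (0.36). SCHIP1 was listed at 2.23, 1.89 and 1.94 FPKM in OE, against 0.370, 0.304 and 0.239 FPKM in NC. SHISA5 was listed at 24.6, 22.7 and 23.2 FPKM in OE, against 10.3, 14.4 and 12.7 FPKM in NC. All 5 genes were high in the 3 OE libraries and low in the 3 NC libraries, which is the pattern that defined the search, and no head subunit was among them.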

How the data were processed

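RNA-seq was available for 3 OE and 3 NC libraries, mapped to the groups by the genotype in the sample labels. The deposited table holds FPKM for 12154 protein-coding genes, without counts. By the authors' methods, stranded libraries were mapped to GRCh37 with HISAT2, and Ballgown gave FPKM. HISAT2 2.0.5 and featureCounts 1.5.0-p3 are named in the submitters' processing notes, and no annotation release was found.

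From these values, log2(FPKM + 1) was compared with limma 3.58.1 in R 4.3.3 (moderated variances with a trend) for 11042 genes averaging 1 FPKM or more, with Benjamini-Hochberg adjustment over all of them and calls at an adjusted p under 0.05. Differences on this scale understate those of low genes. The fit was tested on simulated data, with pass conditions for the largest planted change and for false calls only. That test says nothing of how well small differences are found. The members, gene lists and tests were chosen with earlier results of these data known. Named genes were the 10 subunits, called genes and the largest difference of each other list, the nearest listed gene on each side of MED18, and the 5 genes nearest to it in pattern. Gene models were taken from GENCODE 44 mapped to GRCh37 and promoters from RefSeq (GRCh38.p14). Matplotlib 3.10.9 (Python 3.11.15) drew the figures. Alternatives tried were no filter, a filter at 5 FPKM, a pseudocount of 0.1, median-of-ratios rescaling, a Ballgown-style and a plain per-gene model, the replicate block and leaving out each library. The canonical transcript length was added after the data were seen.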

Additional observations from a re-analysis of the deposited data

How the results depend on the processing

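The number of the 9 head subunits called besides MED18 was 0 under all alternatives, of which the filter at 5 FPKM tested 6. The log2 difference of MED18 was 1.34 to 1.64. Over all genes, 7 were called, against 0 in the Ballgown-style model and in the per-gene model with no library term, moderation or filter (907 and 513 at an unadjusted p under 0.05), and 1 to 18 without 1 library, lowest without NC replicate 3 and highest without NC replicate 1. With the replicate block 1 gene was called. The count was 5 with a pseudocount of 0.1 FPKM, 8 with no filter, 5 with the filter at 5 FPKM and 7 with median-of-ratios rescaling. With so few calls over all genes, 0 of the 9 says little of the subunits. Libraries with the same number had deviations from their group means that correlated at -0.0134, 0.0106 and -0.0054. These values are small, but whether libraries of the same number were handled together is unknown. Differences near 0 changed sign in the Ballgown-style model for MED8 (-0.035), MED11 (-0.056), MED17 (-0.018) and MED28 (-0.032), and the cause was not tested. Without 1 library they ranged from -0.033 to 0.037 for MED8, -0.041 to 0.059 for MED11, -0.010 to 0.068 for MED17, -0.009 to 0.081 for MED22, -0.033 to 0.044 for MED28 and -0.153 to 0.009 for SESN2. The neighbouring pairs with separated ranges were 6 in each group on either length, and 6 to 8 in OE and 6 to 7 in NC without 1 library. The read depth is unknown, so counting error could not be separated from the spread between libraries.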
